A study of Mus musculus with 84 samples.

Results

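Gene expression was compared in cells of the spinal cord that were sorted and labelled as astrocytes, between mice at the peak of experimental autoimmune encephalomyelitis (EAE) and unimmunized mice. The comparison rests on the libraries titled E4_SC_A (EAE score 4, 6 libraries) and C_SC_A (unimmunized controls, 5 libraries), which were chosen by their titles and not by any measured value. They are 11 of the 84 libraries of the series, 11 of the 66 libraries of its EAE experiment and 11 of the 22 libraries that this experiment holds from spinal cord. All were made from C57BL/6J mice. The EAE mice were young adult females that had received a peptide of myelin oligodendrocyte glycoprotein (MOG) in complete Freund's adjuvant and pertussis toxin, and score 4 stands for complete paralysis of the hind legs. The controls had not been immunized, so that the comparison takes adjuvant and toxin together with the disease. Libraries of spinal cord at score 1 (E1_SC_A, limp tail, 5 libraries) and in chronic disease (Ech_SC_A, 6 libraries) are used here only to place the E4 values. Cells of the cervical and thoracic cord were dissociated with trypsin and DNase at warm temperature and sorted as viable events without CD11B and CD45 (surface proteins of myeloid and other blood-derived cells) that carried ACSA-2, the antigen encoded by Atp1b2, and lacked GLAST, the glutamate transporter encoded by Slc1a3. Cells of a single mouse or of a pair of mice went into a library, so the libraries are called replicates here without more being known of litters or days.

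Astrocytes take up glutamate and potassium around synapses, couple to each other through gap junctions and place endfeet on vessels. In EAE, T cells directed against myelin enter the spinal cord together with monocytes, and astrocytes in lesions become reactive and answer to cytokines of these cells. Interferons act through STAT transcription factors on a well-described set of genes, among them those for antiviral proteins, for immunity-related GTPases and for antigen presentation on major histocompatibility complex (MHC) class I.

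The 11 libraries held between 1772622 and 4895220 counts of 3′ ends, and between 11675 and 14354 genes were above 3 counts, the floor taken for detection, in a library. Levels are given in CPM, the usual unit of reads of a gene relative to the reads of the library, with TMM-scaled library totals, and 3′ counts need no correction for gene length. In E4 libraries between 6.01% and 8.07% of counts came from mitochondrial genes, against between 11.4% and 13.6% in the controls, and between 1.84% and 3.05% from ribosomal protein genes, against between 0.838% and 1.20%. The part of these differences in the results below was not tested. E4 replicate 2 stood apart. Its correlation with the other E4 libraries (Pearson's r across genes) lay between 0.804 and 0.867. That of E4 replicate 3 with its group lay between 0.865 and 0.941, of replicate 4 between 0.838 and 0.882 and of replicate 5 between 0.804 and 0.924. The 19 myeloid marker genes of replicate 2 summed to 6640.0 CPM against between 144 and 374 CPM in the other 5 E4 libraries. Results that rest on this library are therefore also given without it. The bracketed name in each title ends in a sheet number whose meaning the labels do not state. It was 60, 66, 67, 75 and 83 in the controls and 26, 31, 37, 48, 50 and 69 in the E4 libraries, so that a split at 56 puts only E4 replicate 3 with the controls.

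Of 23324 genes tested, 4184 (17.9%) differed between E4 and control libraries by edgeR's quasi-likelihood test at a Benjamini-Hochberg adjusted p under 0.05 and a log2 fold change beyond 1 in either direction, and such genes are called higher or lower here. Log2 fold changes are given with ± a standard error, derived as the size of the change divided by the square root of the test's F statistic. The threshold on p alone was passed by 5233 genes, so that some genes below have a small p and a change under the fold limit and are not called. They split into 1586 higher (6.8% of genes tested) and 2598 lower (11.1%) in E4. Groups did not overlap in CPM for 2883 genes (12.4%). Among the called genes 898 of the higher and 1432 of the lower ones had groups that did not overlap. All 5 controls were at or under the floor for 429 of the genes called higher, and all 6 E4 libraries for 670 of those called lower. Folds of such genes are given as lower bounds against the floor. Without E4 replicate 2 the test called 3746 genes (1324 higher, 2422 lower), of which 3478 were among the 4184. How reads on the strands were counted is not stated, so values of genes that overlap others are uncertain to that extent, among those named below S100b (with Dip2a), B2m (Patl2), Igtp (Irgm2), Tap1 and Psmb9 (each other), Stat3 (Stat5a), Hoxc6 and Hoxc8 (Hoxc5), Zic1 (Zic4) and Gm11266 (Nfib). The plot of mean levels in both groups shows most astrocyte genes below the diagonal and most interferon and myeloid genes above it.

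**Figure D1:**
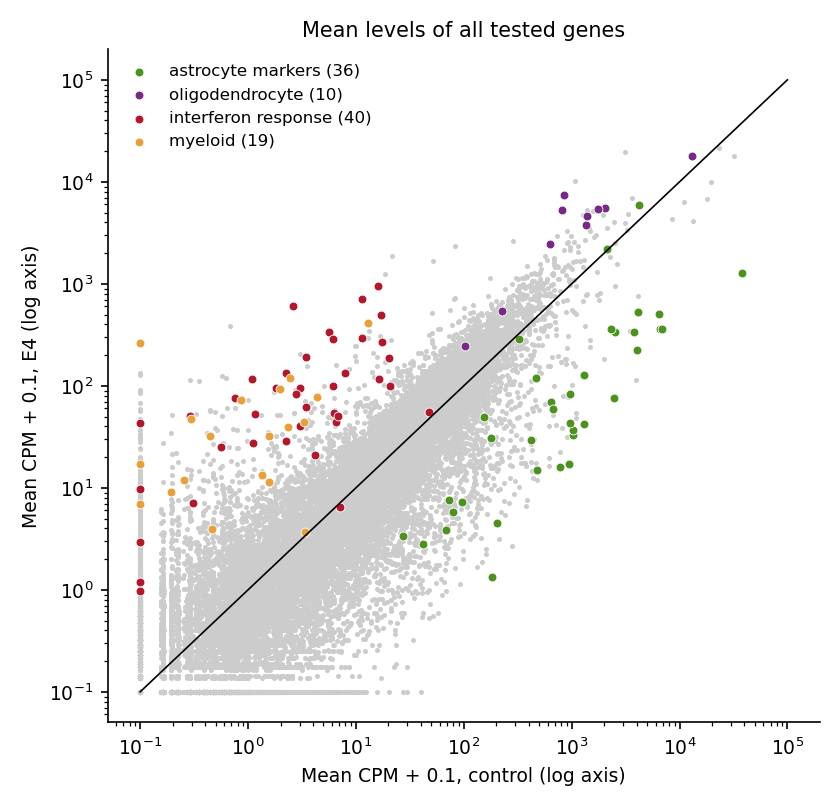
Mean level of each of the 23324 genes tested in the 5 control libraries (x axis, CPM + 0.1, log scale) against the 6 E4 libraries (y axis, CPM + 0.1, log scale), with genes of 4 lists coloured. Most astrocyte genes lie below the diagonal, and most interferon response, myeloid and oligodendrocyte genes above it.

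The genes that identify astrocytes were lower in the E4 libraries, including the antigen used for the sort. Of 36 astrocyte marker genes 33 were lower and none was higher, with a median log2 fold change of -3.75 beside 0 over all genes tested. The groups did not overlap for any of the 33, and all 33 were also lower without E4 replicate 2. Atp1b2, a sodium pump subunit that carries the ACSA-2 epitope, was at 6472, 7001, 5175, 6634 and 7706 CPM in the controls and between 103 and 599 CPM (median 361) in the E4 libraries (log2 fold change -4.21 ± 0.31, adjusted p = 1.2e-18). All 6 E4 libraries lay far below the lowest control, although the cells had been gated on this protein. Slc1a3, whose protein GLAST was absent from the sorted cells by the gate, was at 215, 144, 214, 191 and 129.6 CPM in the controls and between 8.95 and 39.1 CPM (median 35.9) in the E4 libraries (log2 fold change -2.53 ± 0.27, adjusted p = 5.2e-12). It was thus low in the controls and lower again in every E4 library.

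Slc1a2, the main glutamate transporter of astrocytes, was at 4128, 3518, 2749.7, 4486 and 3919.9 CPM in the controls and between 139 and 603 CPM (median 294) in the E4 libraries (log2 fold change -3.48 ± 0.28, adjusted p = 4.6e-17). The water channel gene Aqp4 was at 965, 975, 834, 989 and 1014 CPM in the controls and between 11.3 and 195 CPM (median 74.3) in the E4 libraries (log2 fold change -3.51 ± 0.33, adjusted p = 3.7e-14). Both had been among the abundant transcripts of the controls, and neither group reached into the range of the other. Gja1, which encodes connexin 43 of astrocyte gap junctions, was at 1143, 1169.8, 847, 994 and 1013 CPM in the controls and between 2.26 and 81.7 CPM (median 25.4) in the E4 libraries (log2 fold change -4.93 ± 0.44, adjusted p = 3.8e-15), and Gjb6, for the partner connexin 30, fell alike (-4.79 ± 0.43, adjusted p = 4.1e-15). Fgfr3, a growth factor receptor of astrocytes, was at 1442, 1133, 914, 1319 and 1649.9 CPM in the controls and between 14.7 and 83.2 CPM (median 39.5) in the E4 libraries (log2 fold change -4.92 ± 0.32, adjusted p = 5.7e-21). Btbd17, an astrocyte gene of little known function, was at 716, 796, 523, 902 and 990.2 CPM in the controls and between 13.5 and 20.6 CPM (median 14.7) in the E4 libraries (log2 fold change -5.61 ± 0.33, adjusted p = 2e-22). For these 4 genes the highest E4 library was several times under the lowest control. Aldh1l1, a folate enzyme and common astrocyte marker, was at 82.8, 73.8, 47.01, 69.4 and 93.1 CPM in the controls and between 2.66 and 12.6 CPM (median 6.80) in the E4 libraries (log2 fold change -3.28 ± 0.34, adjusted p = 1.4e-12). Sox9, a transcription factor of astrocytes, was between 394 and 462 CPM in the controls and between 11.3 and 60.7 CPM in the E4 libraries (log2 fold change -3.84 ± 0.32, adjusted p = 2.3e-16).

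Gpr37l1, an orphan receptor, was between 5354 and 9184 CPM in the controls and between 377 and 772 CPM in the E4 libraries, and Sparcl1, a secreted synapse-promoting protein, was between 4987 and 7504 CPM in the controls and between 213 and 565 CPM in the E4 libraries (-4.24 ± 0.28, adjusted p = 1.7e-20). Apoe, the lipid carrier that astrocytes share with macrophages, was at 2579, 2437, 1845, 2538 and 3177 CPM in the controls, at 1322 CPM in E4 replicate 2 and between 93.1 and 205 CPM in the other 5 E4 libraries (log2 fold change -2.89 ± 0.35, adjusted p = 2.3e-10). It was lower in all E4 libraries, most of all outside replicate 2, and the change without that library was -4.14 ± 0.26, adjusted p = 5.2e-21. Aldoc, an aldolase of glycolysis enriched in astrocytes, was between 3097 and 5485 CPM in the controls and between 349 and 684 CPM in the E4 libraries (-2.96 ± 0.22, adjusted p = 2.7e-18).

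The exceptions among the 36 were Glul, S100b and Nfia. Glul, for glutamine synthetase, was at 2113, 4612, 7284, 3536 and 3322 CPM in the controls and between 2868 and 9532 CPM (median 5991) in the E4 libraries (log2 fold change 0.52 ± 0.24, adjusted p = 0.1). S100b, for a calcium-binding protein, was at 2070.2, 2546, 1827, 1932 and 2328 CPM in the controls and between 1354 and 3528 CPM (median 1969) in the E4 libraries (log2 fold change 0.04 ± 0.19, adjusted p = 0.99). Both genes are also expressed by oligodendrocytes, and their groups overlapped. Nfia, a transcription factor of gliogenesis, was between 255 and 377 CPM in the controls and between 224 and 349 CPM in the E4 libraries (-0.17 ± 0.15, adjusted p = 0.44). The 8 genes taken to define astrocytes (Aldh1l1, Slc1a2, Gja1, Aqp4, Fgfr3, Sox9, Atp1b2 and S100b) were above the floor in all E4 libraries. They summed to between 12788 and 18186 CPM in the controls and between 2308 and 3816 CPM in E4, of which S100b alone made between 1354 and 3528 CPM. The label astrocyte was thus carried by transcripts in the E4 libraries but at a much lower level, and the libraries are named here by stage rather than as pure astrocytes. In such bulk libraries a smaller share of astrocytes among the sorted cells and less of these RNAs per astrocyte cannot be told apart.

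**Figure D2:**
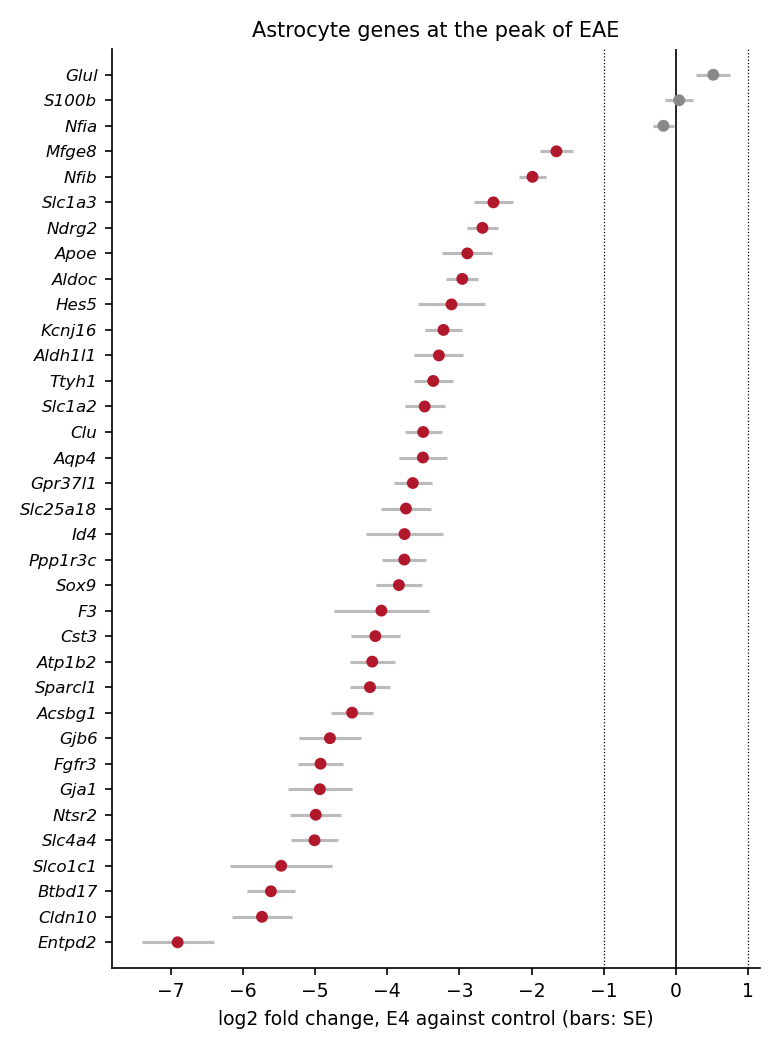
Log2 fold change between E4 and control libraries with its standard error (x axis) for 35 of the 36 astrocyte marker genes (y axis), called genes in red and the others in grey, with dotted lines at log2 fold changes of -1 and 1. All genes shown but Glul, S100b and Nfia lie left of the lower line.

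Markers of other cell types differed as well. Myelin genes of oligodendrocytes were higher, 8 of 10 of them (median log2 fold change 1.55), and all 10 were above the floor in every library of both groups. They summed to between 14358 and 41875 CPM in the controls and between 30361 and 77684 CPM in E4. Control replicate 3 was the highest of the controls at 41875 CPM and the ranges overlapped. Mobp, a structural myelin protein gene, was at 387, 1109.7, 1469, 566 and 746 CPM in the controls and between 5022 and 11331 CPM (median 7516) in the E4 libraries (log2 fold change 3.12 ± 0.47, adjusted p = 1.7e-07). Cldn11, for the tight junction protein of the myelin sheath, was at 475, 765, 1543, 574 and 674 CPM in the controls and between 4208 and 7066 CPM (median 5146) in the E4 libraries (log2 fold change 2.72 ± 0.43, adjusted p = 6.5e-07). Every E4 library exceeded every control for both genes. Mbp, for myelin basic protein, was between 1251 and 3763 CPM in the controls and between 1701 and 9114 CPM in the E4 libraries (log2 fold change 1.45 ± 0.35, adjusted p = 0.0011), and Mog, whose protein the immunization targeted, was between 129.9 and 425 CPM in the controls and between 235 and 839 CPM in the E4 libraries (log2 fold change 1.28 ± 0.46, adjusted p = 0.036). For both genes the groups overlapped. Among 7 genes of oligodendrocyte precursors only Sox10, which mature oligodendrocytes share, was called higher (1.43 ± 0.42, adjusted p = 0.0079). Olig1 (0.36 ± 0.30, adjusted p = 0.42), Olig2 (-0.54 ± 0.31, adjusted p = 0.21) and the precursor receptor Pdgfra (0.69 ± 0.49, adjusted p = 0.32) were not called. Ndrg1, a stress-responsive gene of myelinating cells, was between 216 and 832 CPM in the controls and between 304 and 801 CPM in the E4 libraries (0.41 ± 0.42, adjusted p = 0.53).

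Myeloid markers were called higher for 16 of 19 genes, and for 8 of 19 without E4 replicate 2. Their sum lay between 21.98 and 62.5 CPM in the controls and between 144 and 374 CPM in the 5 E4 libraries other than replicate 2. The controls were at or under the floor throughout for 8 of the 19, Ptprc, Tmem119, Ly6c2, Ccr2, Lyz2, Fcer1g, Cd14 and Spi1, while 8 of 19 were above it in all E4 libraries. Ptprc, which encodes CD45, a protein that the gate removed, was at 0.992, 0, 0, 0 and 0 CPM in the controls and between 8.19 and 210.3 CPM (median 14.5) in the E4 libraries and thus at least 41.1-fold higher at an adjusted p of 6.1e-06, and without replicate 2 at least 12.3-fold higher at an adjusted p of 0.00016. All E4 libraries were above all controls for this gene. Of 14 T and NK cell genes 8 were higher, 7 without replicate 2, and their sum was between 0 and 11.4 CPM in the controls and between 19.8 and 97.5 CPM in E4. Trbc2, a constant segment of the T cell receptor, was between 0 and 1.26 CPM in the controls and between 3.38 and 21.8 CPM in the E4 libraries (log2 fold change 4.93 ± 1.42, adjusted p = 0.0068). The cytotoxic genes Gzmb and Klrd1 were at the floor in all E4 libraries, while Gzma and Nkg7 were not. No B cell gene was called. All 6 were at the floor in the controls and 4, among them Cd79a, Cd79b and Ms4a1, in all E4 libraries. All 6 endothelial genes were at the floor in the controls, and Cldn5, Cdh5 and Tek in all E4 libraries as well. The endothelial sum was between 0 and 3.74 CPM in the controls and between 0 and 13.0 CPM in E4. Of 5 endothelial genes tested 1 was higher, and 0 without E4 replicate 2.

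Genes of pericytes and fibroblasts summed to between 85.7 and 187 CPM in the controls and between 6.22 and 21.8 CPM in E4. Of the 7 genes 3 were lower, the receptor gene Pdgfrb (log2 fold change -5.78 ± 0.70, adjusted p = 2.6e-10) and the collagen genes Col1a1 (-4.77 ± 0.86, adjusted p = 1e-05) and Col1a2 (-3.24 ± 0.36, adjusted p = 2e-11). The other 4 were not called, and Col3a1, Dcn and Lum were at or under the floor in all controls. Of 9 neuronal genes 7 were lower, among them the synaptic genes Snap25 (-1.67 ± 0.35, adjusted p = 0.00017) and Syt1 (-2.18 ± 0.46, adjusted p = 0.00015). Tubb3, for a beta-tubulin of neurons, was the exception at 9.91, 8.20, 42.4, 4.71 and 21.99 CPM in the controls and between 416 and 661 CPM (median 481) in the E4 libraries (log2 fold change 4.84 ± 0.58, adjusted p = 2.4e-10). No E4 library reached down to the controls for it. With Tubb3 included, the 9 genes summed to between 342 and 630 CPM in the controls and between 515 and 798 CPM in E4. The neuronal sum thus did not fall. The part of all these cell types in the results below was not tested. In hindbrain libraries sorted the same way, the astrocyte sum was between 19605 and 25037 CPM in the controls and between 20734 and 24876 CPM at E4, and the difference between the regions was not tested.

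**Figure D3:**
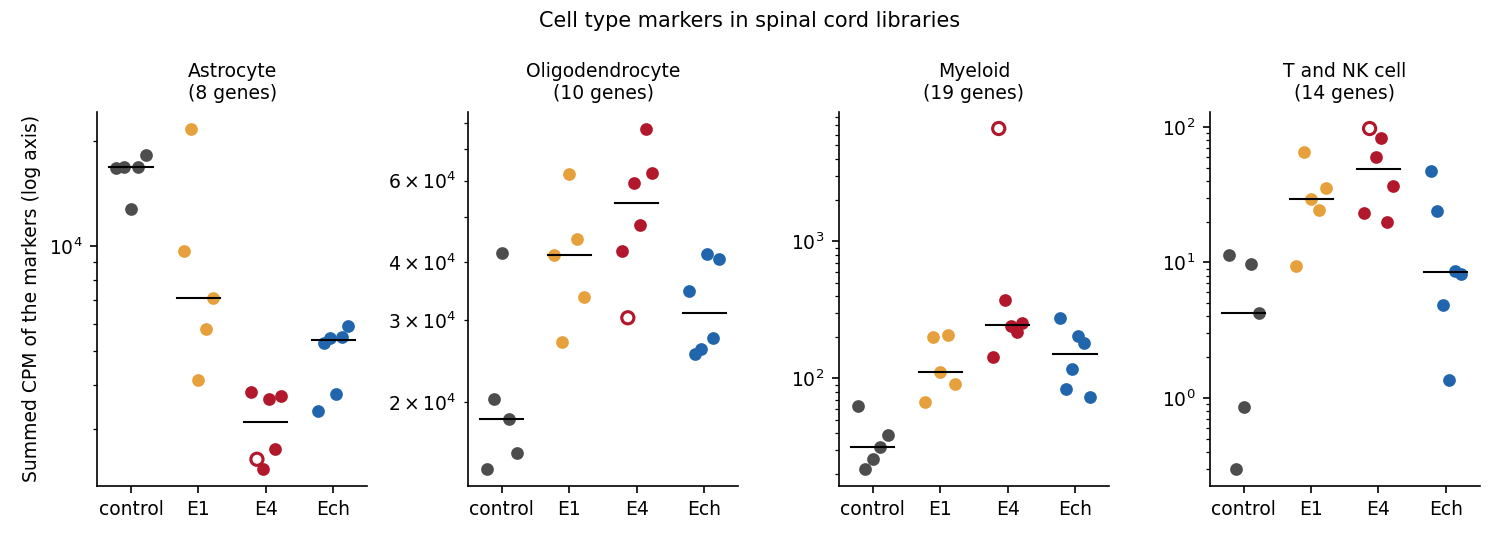
Summed CPM (y axes, log scale) of marker genes of astrocytes (8 genes), oligodendrocytes (10), myeloid cells (19) and T and NK cells (14) in each spinal cord library by stage, with a line at the median and E4 replicate 2 as an open circle. Astrocyte sums of the E4 libraries lie under all controls, and the myeloid sum of E4 replicate 2 lies far above every other library.

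Genes for the functions of astrocytes at vessels and synapses followed the markers for the most part. Of 16 genes of the endfoot complex 11 were lower and 1 was higher (median -2.79, and -2.48 with genes at the floor set to their bounds). Mlc1, a membrane protein of endfeet, was at 804, 831, 613, 858 and 962 CPM in the controls and between 20.3 and 73.9 CPM (median 33.02) in the E4 libraries (log2 fold change -4.41 ± 0.27, adjusted p = 1e-21). Dystrophin and its relatives fell with it, Dmd (-2.81 ± 0.29, adjusted p = 7.8e-13), Utrn (-3.77 ± 0.38, adjusted p = 6e-13, and -4.42 ± 0.39, adjusted p = 2.8e-15 without E4 replicate 2) and Dtna (-1.85 ± 0.18, adjusted p = 3.1e-13). Kcnj10, for the potassium channel Kir4.1 that sits beside Aqp4 in the endfoot, was at 585, 570.4, 842, 713 and 729.5 CPM in the controls and between 344 and 614 CPM (median 507) in the E4 libraries (log2 fold change -0.51 ± 0.16, adjusted p = 0.012). Its groups overlapped, whereas those of Kcnj16, for the channel subunit that assembles with it, did not (-3.22 ± 0.25, adjusted p = 1.6e-17). Hepacam, for the adhesion protein that binds Mlc1, was between 494 and 604 CPM in the controls and between 172 and 476 CPM in the E4 libraries (-0.65 ± 0.17, adjusted p = 0.0034). Trpv4, a calcium channel, was the single member called higher, with 0 CPM in all 5 controls and between 1.14 and 8.56 CPM in the E4 libraries, and was at least 3.50-fold higher at an adjusted p of 0.0036.

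Of 19 genes that handle glutamate, GABA and glycine 12 were lower and none was higher (median -2.04). Slc6a11, the GABA transporter GAT3 of astrocytes, was at 4266, 4123, 2682, 4127 and 4601 CPM in the controls and between 41.7 and 200.3 CPM (median 104) in the E4 libraries (log2 fold change -5.12 ± 0.41, adjusted p = 3.8e-17). Slc38a3, an exporter of glutamine, was at 499.7, 253, 256, 488 and 604 CPM in the controls and between 9.60 and 37.7 CPM (median 13.8) in the E4 libraries (log2 fold change -4.58 ± 0.32, adjusted p = 2.3e-19). The E4 libraries lay below all controls for both. Receptor subunit genes Gria1 (-4.36 ± 0.30, adjusted p = 1.1e-19) and Gabrg1 (-4.54 ± 0.36, adjusted p = 5.3e-17) were lower, while the metabotropic receptor genes Grm3 (0.70 ± 0.38, adjusted p = 0.17), Grm5 (-0.91 ± 0.40, adjusted p = 0.092) and Gabbr1 (0.21 ± 0.20, adjusted p = 0.51) were not called. Of 19 synapse-organizing genes 12 were lower and 2 higher (median -1.59). Gpc4 and Gpc6 encode glypicans that recruit glutamate receptors. Gpc4 was between 3.73 and 9.18 CPM in the controls and 0 CPM in all 6 E4 libraries, at least 5.16-fold lower at an adjusted p of 1.8e-06, and Gpc6 was between 27.9 and 43.9 CPM in the controls and between 0.778 and 9.59 CPM in the E4 libraries (-3.21 ± 0.36, adjusted p = 3e-11). The phagocytic receptor gene Megf10 was between 67.4 and 105 CPM in the controls and between 31.6 and 75.9 CPM in the E4 libraries (-0.59 ± 0.21, adjusted p = 0.035). Tnr, a matrix protein of oligodendrocytes and perineuronal nets, was called higher (1.76 ± 0.46, adjusted p = 0.0026). Thbs1, for thrombospondin 1, was called only with E4 replicate 2 and was at 70.1 CPM in E4 replicate 2 and between 0 and 0.888 CPM in the other 5 E4 libraries.

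Signals to vessels and neighbouring cells were lower in 11 of 22 genes and higher in 1 (median -2.03). Vegfa, the vascular growth factor, was at 385, 162, 276, 352 and 315 CPM in the controls and between 4.41 and 32.8 CPM (median 7.21) in the E4 libraries (log2 fold change -4.69 ± 0.39, adjusted p = 2.7e-16, and -5.32 ± 0.40, adjusted p = 5.8e-18 without E4 replicate 2). Agt, for angiotensinogen, was at 694, 565, 497, 556 and 745 CPM in the controls and between 3.38 and 40.3 CPM (median 12.7) in the E4 libraries (log2 fold change -5.21 ± 0.43, adjusted p = 2.3e-16). Wnt7b, a Wnt ligand that acts on brain endothelium, was at 266, 334, 148, 269 and 301 CPM in the controls and between 10.6 and 32.7 CPM (median 17.7) in the E4 libraries (log2 fold change -3.74 ± 0.27, adjusted p = 6.8e-19). None of the E4 libraries reached the range of the controls for these 3 ligands. The endothelin gene Edn1 (-5.16 ± 0.81, adjusted p = 5.1e-07) and the endothelin receptor gene Ednrb (-3.59 ± 0.28, adjusted p = 2e-17) fell as well. Fgf1 was between 67.8 and 134 CPM in the controls and between 156 and 196 CPM in the E4 libraries with groups that did not overlap and a change under the limit (0.69 ± 0.22, adjusted p = 0.015). Pdgfa, a growth factor for oligodendrocyte precursors, was the member that rose, with between 41.6 and 91.2 CPM in the controls and between 104 and 206 CPM in the E4 libraries (log2 fold change 1.13 ± 0.32, adjusted p = 0.0062).

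Glycolysis genes were lower for 9 of 18 and higher for 2 (median -0.93), and for 10 and 1 without E4 replicate 2 (median -1.57). Pfkm, for a phosphofructokinase, was between 108 and 159 CPM in the controls and between 4.67 and 14.3 CPM in the E4 libraries (-3.90 ± 0.27, adjusted p = 9.2e-20), and Eno1, for enolase, was between 297 and 520.3 CPM in the controls and between 7.90 and 52.9 CPM in the E4 libraries (-3.93 ± 0.47, adjusted p = 2.1e-10). Pkm, for pyruvate kinase, was at 247, 215, 329, 241 and 324 CPM in the controls and at 579 CPM in E4 replicate 2 and between 152 and 216 CPM in the other 5 E4 libraries (-0.14 ± 0.24, adjusted p = 0.77). Hk2, one of the higher genes, lost its call without E4 replicate 2 (2.39 ± 0.51, adjusted p = 0.00017, and 0.34 ± 0.35, adjusted p = 0.54 without it).

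Transcription factors that record the position of a cell along the neural tube were lower too. Of 19 patterning factors 13 were lower and 1 higher (median -2.40, -1.74 with bounds). Pax3, a dorsal factor, was at 53.5, 19.03, 16.9, 49.3 and 21.1 CPM in the controls and between 1.298 and 7.19 CPM (median 3.26) in the E4 libraries (log2 fold change -3.22 ± 0.37, adjusted p = 3.9e-11). Irx3, an intermediate one, was at 72.9, 70.5, 50.7, 70.3 and 83.3 CPM in the controls and between 4.55 and 14.004 CPM (median 11.9) in the E4 libraries (log2 fold change -2.71 ± 0.27, adjusted p = 5.3e-13). Zic1, another dorsal factor, was at 42.6, 45.3, 21.8, 30.1 and 23.9 CPM in the controls and between 0 and 3.37 CPM (median 1.13) in the E4 libraries (log2 fold change -4.55 ± 0.35, adjusted p = 1.6e-17), and the ventral factor Nkx6-1 was between 51.1 and 74.4 CPM in the controls and between 0.519 and 3.95 CPM in the E4 libraries (-5.01 ± 0.70, adjusted p = 2.7e-08). These genes mark different dorsoventral positions, and for each the groups were apart. Nkx6-2, which in the adult is expressed by oligodendrocytes, was the gene that rose, with between 26.8 and 90.3 CPM in the controls and between 293 and 390.1 CPM in the E4 libraries (log2 fold change 2.70 ± 0.47, adjusted p = 3.9e-06). Pbx3, a Hox cofactor, was between 27.8 and 56.7 CPM in the controls and between 30.9 and 55.3 CPM in the E4 libraries (-0.07 ± 0.25, adjusted p = 0.96).

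Hox genes, which mark levels along the cord, were lower for 13 of 27 and higher for none (median -2.73). Their sum was between 758 and 1320.2 CPM in the controls and between 191 and 398 CPM in E4. Hoxc6 was at 101.1, 108, 102, 102 and 148 CPM in the controls and between 2.70 and 11.3 CPM (median 9.40) in the E4 libraries (log2 fold change -3.75 ± 0.69, adjusted p = 1.2e-05), Hoxc8 at 132, 49.9, 78.3, 101.1 and 88.9 CPM in the controls and between 1.69 and 21.3 CPM (median 9.91) in the E4 libraries (log2 fold change -3.12 ± 0.64, adjusted p = 0.00012) and Hoxa9 at 58.5, 54.1, 21.5, 54.95 and 48.7 CPM in the controls and between 0.228 and 12.4 CPM (median 3.13) in the E4 libraries (log2 fold change -3.41 ± 0.73, adjusted p = 0.00031). Controls spread several-fold for Hoxa9, with replicate 3 the lowest, and still stayed above the E4 libraries. Hoxd8 did not follow, at 27.8, 46.3, 50.5, 40.8 and 38.4 CPM in the controls and between 47.96 and 81.4 CPM (median 56.5) in the E4 libraries (log2 fold change 0.57 ± 0.55, adjusted p = 0.5). In the hindbrain libraries of the same sort the Hox sum was between 57.3 and 109.8 CPM in the controls and between 27.7 and 71.6 CPM at E4.

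Lists of genes for reactive astrocytes, taken from the study, gave 7 of 13 higher for reactivity to any insult (pan-reactive), 9 higher and 2 lower of 11 for reactivity to lipopolysaccharide (LPS), and 2 higher and 1 lower of 11 for reactivity to middle cerebral artery occlusion (MCAO). Medians were 2.10, 5.02 and 2.58, and with bounds 0.84, 4.41 and 0.04, beside -0.06 over all genes with bounds. Without E4 replicate 2 the counts were 5, 8 and 1 higher, and the pan-reactive median was 1.15.

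Serpina3n, a secreted protease inhibitor and a widely used marker of reactive astrocytes that oligodendrocytes also express in EAE, was at 32.2, 23.3, 17.5, 21.98 and 12.6 CPM in the controls and between 1675 and 2160.4 CPM (median 1791) in the E4 libraries (log2 fold change 6.45 ± 0.58, adjusted p = 5.9e-15). Every E4 library was more than an order of magnitude above the controls. Gfap, the intermediate filament of reactive astrocytes, was at 47.6, 26.9, 69.1, 50.6 and 50.1 CPM in the controls and between 85.2 and 152 CPM (median 95.5) in the E4 libraries (log2 fold change 1.10 ± 0.34, adjusted p = 0.013). It was the pan-reactive gene that rose least among those called, with groups just apart. Lcn2, for the iron-binding lipocalin, was at 0 CPM in all 5 controls and between 0.564 and 13.03 CPM (median 6.68) in the E4 libraries, at least 6.05-fold higher at an adjusted p of 0.00082 and without E4 replicate 2 at least 4.96-fold higher at an adjusted p of 0.0016. Hspb1, a small heat shock protein gene, was 0 CPM in all 5 controls and between 0.778 and 13.03 CPM in the E4 libraries, at least 4.43-fold higher at an adjusted p of 0.0006 and without replicate 2 at least 3.02-fold higher at an adjusted p of 0.0017. Vim, another intermediate filament gene, was called with E4 replicate 2 (2.10 ± 0.49, adjusted p = 0.00069) and not without it (1.18 ± 0.45, adjusted p = 0.054). Cd44, an adhesion receptor, was between 3.28 and 24.3 CPM in the controls and between 3.50 and 61.5 CPM in the E4 libraries (0.84 ± 0.54, adjusted p = 0.26).

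Of the LPS list, Serping1, an inhibitor of the complement protease C1, was between 0 and 1.88 CPM in the controls and between 8.46 and 51.1 CPM in the E4 libraries (5.85 ± 0.92, adjusted p = 5e-07), and Fkbp5, a glucocorticoid-induced co-chaperone, was between 0 and 6.94 CPM in the controls and between 30.5 and 63.6 CPM in the E4 libraries (3.50 ± 0.79, adjusted p = 0.00043). The members with the highest levels in this list, H2-D1, Iigp1, Psmb8 and Gbp2, are interferon or MHC genes and are described with those. Of the MCAO list, Slc10a6, a transporter of steroid sulfates, was 0 CPM in all 5 controls and between 0.260 and 7.39 CPM in the E4 libraries, at least 4.02-fold higher at an adjusted p of 0.0038 and without replicate 2 at least 3.63-fold higher at an adjusted p of 0.0056. Emp1, a membrane protein gene, was lower (log2 fold change -3.54 ± 0.97, adjusted p = 0.0043). Ptgs2, for cyclooxygenase 2, was at 8.99 CPM in E4 replicate 2 and between 0 and 5.004 CPM in the other 5 E4 libraries and was not called without replicate 2 (adjusted p = 0.064). S100a10 was between 2.95 and 20.6 CPM in the controls and between 5.64 and 19.8 CPM in the E4 libraries (0.10 ± 0.43, adjusted p = 0.99).

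Interferon response genes were higher for 37 of 40 and lower for none, with a median log2 fold change of 4.83 (4.45 with bounds). Groups did not overlap for 33 of the 40, and 35 were called without E4 replicate 2. Their sum was between 213 and 382 CPM in the controls and between 4127 and 7654 CPM in E4. Interferons of type I act through a complex that holds STAT2 and IRF9 on the interferon-stimulated response element (ISRE), and interferon gamma acts through the gamma-activated site (GAS). The 250 bases before the transcription start of 5 genes that the results below turn on, chosen because their windows hold a match, are printed from RefSeq on GRCm38.p6, read 5′ to 3′ on the strand of the gene, with matches to GAAANNGAAA (ISRE) or TTCNNNGAA (GAS) on either strand in capitals.
B2m promoter: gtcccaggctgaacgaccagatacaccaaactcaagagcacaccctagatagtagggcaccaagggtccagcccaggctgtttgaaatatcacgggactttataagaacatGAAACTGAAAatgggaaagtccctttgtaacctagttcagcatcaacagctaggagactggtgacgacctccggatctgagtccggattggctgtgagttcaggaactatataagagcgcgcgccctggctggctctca
Bst2 promoter: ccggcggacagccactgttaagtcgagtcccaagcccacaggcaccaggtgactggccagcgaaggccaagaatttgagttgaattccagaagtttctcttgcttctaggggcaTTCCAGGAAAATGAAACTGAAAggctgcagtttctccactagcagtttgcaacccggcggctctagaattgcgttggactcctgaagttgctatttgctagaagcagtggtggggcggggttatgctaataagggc
Irf1 promoter: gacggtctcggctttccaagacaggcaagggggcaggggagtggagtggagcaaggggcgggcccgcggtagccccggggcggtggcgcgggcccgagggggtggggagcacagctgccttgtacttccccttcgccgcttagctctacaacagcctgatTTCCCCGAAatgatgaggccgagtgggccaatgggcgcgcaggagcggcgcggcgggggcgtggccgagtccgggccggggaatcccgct
Igtp promoter: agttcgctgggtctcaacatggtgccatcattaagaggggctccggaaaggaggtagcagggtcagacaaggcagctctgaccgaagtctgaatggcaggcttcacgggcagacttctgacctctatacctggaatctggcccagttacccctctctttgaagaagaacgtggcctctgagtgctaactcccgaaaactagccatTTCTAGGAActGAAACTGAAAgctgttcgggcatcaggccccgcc
Psmb8 promoter: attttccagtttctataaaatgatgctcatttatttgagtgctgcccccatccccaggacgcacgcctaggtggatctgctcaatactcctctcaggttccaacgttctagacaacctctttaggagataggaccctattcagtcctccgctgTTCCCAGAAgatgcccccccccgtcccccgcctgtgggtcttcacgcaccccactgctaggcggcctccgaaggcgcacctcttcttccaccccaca
The windows are chr2:122147437-122147686, plus strand for B2m, chr8:71537473-71537722, minus strand for Bst2, chr11:53769764-53770013, plus strand for Irf1, chr11:58199306-58199555, plus strand for Igtp and chr17:34197945-34198194, plus strand for Psmb8. In B2m an ISRE begins 139 bases before the start. In Bst2 a pair of ISRE matches that share letters begins at 130 and 124 bases, and a GAS match that overlaps the first of them at 136 bases. In Irf1 the capitals mark a GAS match 90 bases before the start, and a second annotated start of the gene has no match in its window. In Igtp a GAS at 45 and an ISRE at 34 bases stand next to each other, and in Psmb8 a GAS begins at 97 bases. Windows were given for 31 of the 40 interferon genes, of which 18 (58.06%) held an ISRE and 11 (35.48%) a GAS. Of the 20 class I genes with a window (of 23) 3 held an ISRE and 2 a GAS, and no match lay in the windows of H2-D1, H2-K1, Tap1, Tapbp and Psmb9. Of 10 class II genes with a window (of 13) 1 held an ISRE and 1 a GAS. Of all 27025 genes with a window 3.46% held an ISRE and 8.13% a GAS. Among 29 of the 36 astrocyte markers these shares were 10.34% and 17.24%. A match of letters describes these windows and not binding.

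Bst2, for tetherin, which holds budding virus at the membrane, was at 8.43, 25.6, 17.5, 10.99 and 16.4 CPM in the controls and between 512 and 1758 CPM (median 826) in the E4 libraries (log2 fold change 5.91 ± 0.60, adjusted p = 5.9e-13). Irf1, the transcription factor gene with the GAS shown above, was at 29.7, 26.9, 9.46, 3.14 and 14.97 CPM in the controls and between 311 and 735 CPM (median 473) in the E4 libraries (log2 fold change 4.89 ± 0.52, adjusted p = 3.5e-12). Igtp, an immunity-related GTPase that acts on vacuoles of intracellular parasites, was at 11.4, 9.51, 4.01, 16.6 and 15.4 CPM in the controls and between 497 and 1014 CPM (median 681) in the E4 libraries (log2 fold change 5.96 ± 0.68, adjusted p = 4.4e-11), and Iigp1, of the same family, at 0.496, 0, 4.87, 1.57 and 5.62 CPM in the controls and between 412 and 949.9 CPM (median 571) in the E4 libraries (log2 fold change 7.91 ± 0.84, adjusted p = 4.1e-12). For each of these 4 genes the lowest E4 library was more than an order of magnitude above the highest control.

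Transcription factor genes of the pathway rose, Stat2 (2.82 ± 0.39, adjusted p = 1.9e-08), Irf9 (3.21 ± 0.33, adjusted p = 9e-13) and Irf7 (6.48 ± 0.84, adjusted p = 3e-09). Ifit3, which binds viral RNA with its relatives, was between 1.72 and 11.4 CPM in the controls and between 202 and 620.0 CPM in the E4 libraries (log2 fold change 6.01 ± 0.66, adjusted p = 9.6e-12). Gbp2 and Gbp3 encode guanylate-binding proteins induced by interferon gamma. Gbp2 was between 0 and 2.34 CPM in the controls and between 32.7 and 156 CPM in the E4 libraries (6.90 ± 1.01, adjusted p = 8.2e-08) and Gbp3 between 0 and 7.93 CPM in the controls and between 111 and 259 CPM in the E4 libraries (5.89 ± 0.86, adjusted p = 7.8e-08). Isg15, the ubiquitin-like modifier, was between 0 and 8.53 CPM in the controls and between 62.6 and 134 CPM in the E4 libraries (4.92 ± 0.73, adjusted p = 1.1e-07), and Usp18, the protease that removes it, between 0 and 8.20 CPM in the controls and between 29.6 and 62.6 CPM in the E4 libraries (3.74 ± 0.69, adjusted p = 1.5e-05). Zbp1, a sensor of nucleic acids, was between 0 and 4.96 CPM in the controls and between 78.5 and 188 CPM in the E4 libraries (7.11 ± 1.02, adjusted p = 4.7e-08). Tgtp1, Socs1 and Lgals3bp were not called. Socs1, an inhibitor of cytokine signalling, was between 2.51 and 13.1 CPM in the controls and between 0.910 and 11.8 CPM in the E4 libraries (-0.20 ± 0.57, adjusted p = 0.92), and Lgals3bp, a secreted galectin ligand, was between 33.3 and 88.9 CPM in the controls and between 19.2 and 115 CPM in the E4 libraries (0.23 ± 0.38, adjusted p = 0.77). Mx1 and Trim30a lost their calls without E4 replicate 2.

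Genes for antigen presentation on MHC class I were higher for 17 of 23 and lower for none, with a median log2 fold change of 2.72, and the 17 were also called without E4 replicate 2. H2-D1, a classical class I heavy chain, was at 60.98, 78.4, 38.7, 43.02 and 38.84 CPM in the controls and between 1086 and 2350.1 CPM (median 1705) in the E4 libraries (log2 fold change 5.02 ± 0.45, adjusted p = 5.1e-15). H2-K1, the other classical heavy chain of this strain, was at 273, 232, 288, 280.4 and 349 CPM in the controls and between 1959 and 3418 CPM (median 2618) in the E4 libraries (log2 fold change 3.21 ± 0.35, adjusted p = 5.3e-12). Reads of these paralogs may be shared in counting, and for both the groups were far apart. B2m, for the light chain beta-2-microglobulin, was at 83.8, 68.2, 94.3, 81.01 and 84.7 CPM in the controls and between 1803 and 2814 CPM (median 2401) in the E4 libraries (log2 fold change 4.83 ± 0.40, adjusted p = 1.2e-16). The peptide transporter gene Tap1 was between 2.95 and 24.8 CPM in the controls and between 169 and 312 CPM in the E4 libraries (log2 fold change 4.68 ± 0.52, adjusted p = 1.6e-11) and its partner Tap2 between 3.28 and 49.3 CPM in the controls and between 25.2 and 334 CPM in the E4 libraries (1.65 ± 0.85, adjusted p = 0.15). Tapbp, for tapasin, which loads peptide onto class I, was between 43.3 and 52.7 CPM in the controls and between 176 and 484 CPM in the E4 libraries (2.72 ± 0.33, adjusted p = 3.8e-10). Psmb8 and Psmb9 encode catalytic subunits of the immunoproteasome. Psmb8 was at 6.94, 0.656, 0, 3.45 and 3.74 CPM in the controls and between 128 and 326 CPM (median 176) in the E4 libraries (log2 fold change 6.23 ± 0.73, adjusted p = 1e-10) and Psmb9 between 0 and 3.28 CPM in the controls and between 49.4 and 125 CPM in the E4 libraries (5.64 ± 0.79, adjusted p = 2.6e-08). Nlrc5, the transactivator of class I genes, was between 0 and 0.573 CPM in the controls and between 16.6 and 26.1 CPM in the E4 libraries and thus at least 19.2-fold higher at an adjusted p of 1.4e-09. The chaperone genes Calr (0.56 ± 0.22, adjusted p = 0.051), Canx (0.58 ± 0.15, adjusted p = 0.0019) and Pdia3 (0.66 ± 0.19, adjusted p = 0.0056), which serve all glycoproteins, were not called. Among 14 core subunits of the constitutive proteasome 4 were higher (median 0.82), namely Psma7 (1.14 ± 0.17, adjusted p = 2.4e-07), Psmb3 (1.11 ± 0.30, adjusted p = 0.0036), Psmb4 (1.36 ± 0.23, adjusted p = 3.4e-06) and Psmb7 (1.71 ± 0.38, adjusted p = 0.00034).

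MHC class II genes were higher for 8 of 13 and lower for 1, the protease gene Lgmn (median 5.05, 4.62 with bounds). Without E4 replicate 2, 7 were higher with a median of 3.07. The sum was between 64.6 and 124 CPM in the controls, between 179 and 267 CPM in 5 E4 libraries and 4031 CPM in replicate 2. H2-Aa, a class II alpha chain, was at 385 CPM in E4 replicate 2 and between 17.97 and 34.6 CPM in the other 5 E4 libraries, with 0 CPM in all 5 controls (at least 75.1-fold higher at an adjusted p of 2.4e-08, and at least 22.3-fold higher at an adjusted p of 2.8e-07 without that library). H2-Ab1, the beta chain that pairs with it, was at 532 CPM in E4 replicate 2 and between 16.4 and 37.2 CPM in the other 5 E4 libraries and 0, 0, 0, 1.26 and 0 CPM in the controls (log2 fold change 8.43 ± 1.13, adjusted p = 9.5e-09, and 6.47 ± 0.99, adjusted p = 3.5e-07 without replicate 2). H2-Eb1 was at 386 CPM in E4 replicate 2 and between 11.8 and 46.6 CPM in the other 5 E4 libraries and 0 CPM in all 5 controls (at least 77.5-fold higher at an adjusted p of 2.7e-08, at least 24.99-fold higher at an adjusted p of 4e-07 without it). Class II transcripts were thus detected in every E4 library and were several times more abundant in the library with the most myeloid transcripts. Ciita, the transactivator of class II genes, was 0 CPM in all 5 controls and between 0 and 3.997 CPM in the E4 libraries and not called. Cd74, for the invariant chain, was at 261 CPM in E4 replicate 2 and between 0 and 11.1 CPM in the other 5 E4 libraries and 0 CPM in all 5 controls (at least 41.6-fold higher at an adjusted p of 1.7e-05, at least 3.91-fold higher at an adjusted p of 0.0013 without it). Ctss, the cathepsin that trims the invariant chain, was at 2146 CPM in E4 replicate 2 and between 45.1 and 81.7 CPM in the other 5 E4 libraries and 24.3, 8.86, 5.73, 16.3 and 8.42 CPM in the controls (log2 fold change 5.05 ± 0.71, adjusted p = 2.5e-08, 2.49 ± 0.47, adjusted p = 2.8e-05 without it). The plot of immune genes by library shows that replicate 2 stands out for the class II, complement C1q and lysozyme genes and lies among the other E4 libraries for the class I and interferon genes.

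**Figure D4:**
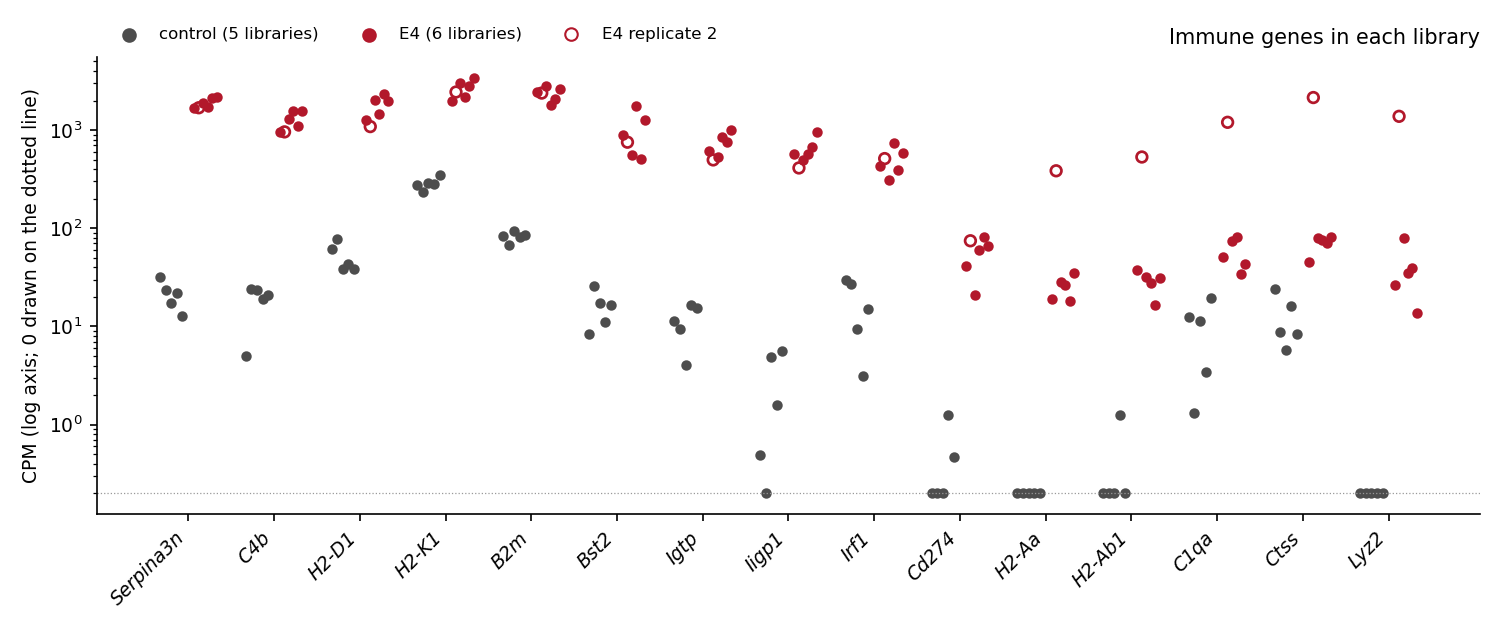
CPM (y axis, log scale, zeros on the dotted line) of 15 immune genes (x axis) in each library, controls in grey, E4 in red and E4 replicate 2 as an open circle. H2-D1, H2-K1, B2m, Bst2, Igtp, Iigp1 and Irf1 show 6 E4 libraries together above the controls, while H2-Aa, H2-Ab1, C1qa, Ctss and Lyz2 show E4 replicate 2 above the other E4 libraries.

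Complement genes were higher for 9 of 17 and lower for none (median 3.29), and for 6 of 16 without E4 replicate 2 (median 1.39). C4b, the component that follows C1 in the classical pathway and that glia make in EAE, was at 4.96, 24.3, 23.5, 19.2 and 21.1 CPM in the controls and between 959 and 1582 CPM (median 1202) in the E4 libraries (log2 fold change 6.05 ± 0.46, adjusted p = 6.5e-18). Every E4 library was far above the highest control. C1qa, a chain of the initiator C1q that is made by myeloid cells, was at 1200.4 CPM in E4 replicate 2 and between 33.9 and 81.7 CPM in the other 5 E4 libraries and 12.4, 1.31, 11.5, 3.45 and 19.7 CPM in the controls (log2 fold change 4.71 ± 0.64, adjusted p = 9.7e-09, 2.58 ± 0.44, adjusted p = 4.2e-06 without it). C1qb was at 287 CPM in E4 replicate 2 and between 5.45 and 23.4 CPM in the other 5 E4 libraries and 1.49, 0, 0.860, 0.942 and 0 CPM in the controls (at least 52.8-fold higher at an adjusted p of 2.8e-09, at least 12.8-fold higher at an adjusted p of 2.8e-07 without it). C3, on which all pathways converge, was at 235 CPM in E4 replicate 2 and between 3.89 and 15.5 CPM in the other 5 E4 libraries and 7.44, 0, 3.44, 0 and 6.55 CPM in the controls, called with replicate 2 (3.76 ± 1.05, adjusted p = 0.0049) and not without it (1.29 ± 0.97, adjusted p = 0.37). Cd59a, which protects cells from the membrane attack complex, was between 13.9 and 25.2 CPM in the controls and between 39.7 and 83.7 CPM in the E4 libraries (1.46 ± 0.37, adjusted p = 0.0016). Cfp, for properdin, was between 0.992 and 5.45 CPM in the controls and between 0 and 19.8 CPM in the E4 libraries (0.68 ± 0.97, adjusted p = 0.7).

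Of 17 chemokine genes 8 were higher and 2 lower, and 4 were higher without E4 replicate 2 (median 3.73, 1.09 with bounds, and 2.51 without that library). Cxcl14, a chemokine of astrocytes in the controls, was at 393, 459, 349, 497 and 562 CPM in the controls and between 16.9 and 42.2 CPM (median 29.6) in the E4 libraries (log2 fold change -3.91 ± 0.27, adjusted p = 2.1e-19). Cx3cl1, for fractalkine, the ligand of the microglial receptor CX3CR1, was at 77.3, 59.7, 40.1, 45.5 and 68.3 CPM in the controls and between 2.25 and 12.98 CPM (median 9.997) in the E4 libraries (log2 fold change -2.70 ± 0.37, adjusted p = 1.1e-08). These 2 fell in every E4 library. Cxcl9, a ligand of the T cell receptor CXCR3 induced by interferon gamma, was at 0 CPM in all 5 controls and between 0 and 81.3 CPM (median 3.48) in the E4 libraries, at least 14.6-fold higher at an adjusted p of 4.7e-05 and without replicate 2 at least 3.20-fold higher at an adjusted p of 0.0016. Cxcl10, of the same group, was at 27.4 CPM in E4 replicate 2 and between 0.778 and 6.77 CPM in the other 5 E4 libraries and 0, 0, 2.58, 0.314 and 0 CPM in the controls (3.45 ± 1.12, adjusted p = 0.018, and 2.51 ± 1.14, adjusted p = 0.11 without it) and not called without that library. Ccl2, which attracts monocytes, was 0 CPM in all 5 controls and between 0.260 and 5.33 CPM in the E4 libraries, at least 2.13-fold higher at an adjusted p of 0.023 and without replicate 2 at least 2.48-fold higher at an adjusted p of 0.021. Ccl5, which attracts T cells, was between 0 and 1.57 CPM in the controls and between 1.13 and 91.6 CPM in the E4 libraries (5.79 ± 1.39, adjusted p = 0.001, 4.31 ± 1.33, adjusted p = 0.013 without it). Cxcl12 was between 0 and 0.936 CPM in the controls and between 0 and 3.50 CPM in the E4 libraries and not called. Each of the 8 higher chemokines had a median under 10 CPM in E4.

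Of 20 receptor genes for cytokines 3 were higher and 1 lower, beside 6.8% and 11.1% of all genes tested. Their median of 0.67 turned to -0.16 without E4 replicate 2. The chains of the interferon receptors were not called, Ifngr1 with between 39.6 and 64.5 CPM in the controls and between 18.7 and 129 CPM in the E4 libraries (-0.18 ± 0.30, adjusted p = 0.76), Ifngr2 with between 0 and 4.96 CPM in the controls and between 0 and 12.4 CPM in the E4 libraries (0.64 ± 0.76, adjusted p = 0.62), Ifnar1 with between 3.28 and 29.01 CPM in the controls and between 8.30 and 22.2 CPM in the E4 libraries (-0.53 ± 0.38, adjusted p = 0.33) and Ifnar2 with between 14.3 and 27.8 CPM in the controls and between 29.2 and 66.5 CPM in the E4 libraries (0.98 ± 0.27, adjusted p = 0.0044). Tnfrsf1a, for the TNF receptor 1, was between 56.4 and 121 CPM in the controls and between 55.8 and 116 CPM in the E4 libraries (-0.23 ± 0.27, adjusted p = 0.61). Il17ra, for the receptor of interleukin 17, was between 76.5 and 176 CPM in the controls and between 35.4 and 125 CPM in the E4 libraries (log2 fold change -1.11 ± 0.28, adjusted p = 0.0019). Osmr, the receptor of oncostatin M, was 0 CPM in all 5 controls and between 0 and 5.004 CPM in the E4 libraries, at least 1.08-fold higher at an adjusted p of 0.018 and without replicate 2 at least 1.299-fold higher at an adjusted p of 0.014. Csf2rb, a chain of the GM-CSF receptor on myeloid cells, was at 102 CPM in E4 replicate 2 and between 0 and 7.01 CPM in the other 5 E4 libraries and 0 CPM in all 5 controls (at least 17.5-fold higher at an adjusted p of 0.00069, at least 3.16-fold higher at an adjusted p of 0.012 without it), and Il1r1 at 8.99 CPM in E4 replicate 2 and between 0 and 8.56 CPM in the other 5 E4 libraries (at least 2.58-fold higher at an adjusted p of 0.0099, at least 1.51-fold higher at an adjusted p of 0.027 without it).

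Among 19 regulators of the STAT3, NF-kappaB and C/EBP pathways 8 were higher and 1 lower (median 1.13). Stat3, a transcription factor that drives astrocyte reactivity, was at 166, 165, 137, 138 and 121 CPM in the controls and between 411 and 689 CPM (median 516) in the E4 libraries (log2 fold change 1.84 ± 0.23, adjusted p = 9.6e-10). Bcl3, an atypical inhibitor of NF-kappaB, was at 0, 0, 2.01, 0.628 and 0 CPM in the controls and between 72.8 and 169 CPM (median 118) in the E4 libraries (log2 fold change 7.49 ± 0.97, adjusted p = 2.7e-09). Both rose in all E4 libraries. Socs3, which STAT3 induces, was between 0 and 0.942 CPM in the controls and between 9.34 and 48.9 CPM in the E4 libraries and thus at least 24.03-fold higher at an adjusted p of 1.3e-06, and Cebpd was between 5.15 and 15.4 CPM in the controls and between 38.5 and 90.1 CPM in the E4 libraries (2.73 ± 0.49, adjusted p = 8.6e-06). Rela, for the p65 subunit of NF-kappaB, was between 51.5 and 63.6 CPM in the controls and between 113 and 166 CPM in the E4 libraries (1.16 ± 0.19, adjusted p = 1.3e-06), while Nfkb1, for p50, was lower (-1.28 ± 0.39, adjusted p = 0.011). Nfkbia, the inhibitor that NF-kappaB induces, was at 406, 389, 341, 419 and 461 CPM in the controls and at 1662 CPM in E4 replicate 2 and between 258 and 468 CPM in the other 5 E4 libraries (0.50 ± 0.31, adjusted p = 0.25).

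Ligands and adhesion molecules that T cells meet were higher for 5 of 13 and lower for 1. Cd274, for the checkpoint ligand PD-L1, was at 0, 0, 0, 1.26 and 0.468 CPM in the controls and between 21.02 and 82.3 CPM (median 63.5) in the E4 libraries (log2 fold change 7.17 ± 0.99, adjusted p = 1.9e-08). It was above the floor in a single control and in every E4 library. Lgals9, for galectin 9, was between 0 and 4.01 CPM in the controls and between 7.73 and 47.2 CPM in the E4 libraries (3.88 ± 0.98, adjusted p = 0.0017), and Lgals3, for galectin 3, was at 146 CPM in E4 replicate 2 and between 1.14 and 11.99 CPM in the other 5 E4 libraries and 0 CPM in all 5 controls (at least 26.5-fold higher at an adjusted p of 8.9e-05, at least 6.22-fold higher at an adjusted p of 0.0016 without it). Vcam1, an adhesion molecule that astrocytes express, was at 202, 148, 177, 212 and 278 CPM in the controls and between 3.37 and 25.7 CPM (median 14.98) in the E4 libraries (log2 fold change -3.82 ± 0.33, adjusted p = 8.9e-16). Icosl, a costimulatory ligand, was at 26.1 CPM in E4 replicate 2 and between 0 and 1.56 CPM in the other 5 E4 libraries and 4.96, 11.2, 8.03, 12.6 and 6.08 CPM in the controls (-0.91 ± 0.56, adjusted p = 0.24, and lower without replicate 2 at -3.52 ± 0.57, adjusted p = 1e-06).

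Matrix and scar genes split, 15 of 30 higher and 4 lower (median 1.67, 12 higher without E4 replicate 2). Brevican and neurocan, proteoglycans of the astrocyte matrix, fell. Bcan was at 952, 798, 710.4, 1049 and 1113 CPM in the controls and between 35.5 and 131 CPM (median 70.2) in the E4 libraries (log2 fold change -3.58 ± 0.33, adjusted p = 1.1e-14) and Ncan was between 147 and 215 CPM in the controls and between 11.7 and 48.8 CPM in the E4 libraries (-2.59 ± 0.36, adjusted p = 1.4e-08). Vcan, for versican, rose instead, with between 56.5 and 183 CPM in the controls and between 186 and 768 CPM in the E4 libraries (log2 fold change 1.99 ± 0.34, adjusted p = 2.9e-06), and so did Tnc, for tenascin C, with between 0 and 7.54 CPM in the controls and between 17.8 and 49.4 CPM in the E4 libraries (3.21 ± 0.65, adjusted p = 7.2e-05). Mmp14, a membrane metalloprotease, was at 139 CPM in E4 replicate 2 and between 16.4 and 28.8 CPM in the other 5 E4 libraries and 543, 311, 284, 447 and 449.7 CPM in the controls (log2 fold change -3.28 ± 0.34, adjusted p = 1e-12, -4.16 ± 0.30, adjusted p = 8.3e-19 without it), and the syndecan gene Sdc4 was between 229 and 404 CPM in the controls and between 14.5 and 108 CPM in the E4 libraries (-2.69 ± 0.31, adjusted p = 4e-11). Anxa2 (4.66 ± 0.65, adjusted p = 2.4e-08, and 3.88 ± 0.61, adjusted p = 5.6e-07 without E4 replicate 2), S100a6 (2.40 ± 0.31, adjusted p = 1.8e-09) and Synm, for the filament protein synemin (1.58 ± 0.44, adjusted p = 0.0054), were higher. Itgb1, for integrin beta 1, was between 87.9 and 165 CPM in the controls and between 157 and 314 CPM in the E4 libraries (1.00 ± 0.22, adjusted p = 0.00041).

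Cell cycle genes were higher for 10 of 29 and lower for none (median 1.96), and for 9 without E4 replicate 2. The fit of the 22 spinal cord libraries called 17 of the 29 higher and DESeq2 14. Top2a, a topoisomerase of dividing cells, was at 20.8, 12.5, 1.15, 0.314 and 7.95 CPM in the controls and between 27.1 and 297 CPM (median 121) in the E4 libraries (log2 fold change 4.13 ± 0.78, adjusted p = 2.3e-05). Mki67, the common proliferation marker, was at 3.47, 0, 0, 0 and 0 CPM in the controls and between 5.46 and 105 CPM (median 25.6) in the E4 libraries (log2 fold change 5.92 ± 1.29, adjusted p = 0.00024, and 5.25 ± 1.29, adjusted p = 0.0013 without E4 replicate 2). Birc5, for survivin, was between 0 and 3.97 CPM in the controls and between 10.6 and 49.6 CPM in the E4 libraries (log2 fold change 3.89 ± 0.89, adjusted p = 0.00053). These 3 genes were above all controls in every E4 library. Cdk1 was between 0 and 1.40 CPM in the controls and between 6.22 and 27.1 CPM in the E4 libraries and thus at least 10.5-fold higher at an adjusted p of 0.0014. Pcna, the replication clamp, was between 3.45 and 51.6 CPM in the controls and between 20.2 and 53.3 CPM in the E4 libraries (0.79 ± 0.62, adjusted p = 0.38). With E4 replicate 3, the library with a sheet number like the controls, as the only E4 library, the median was 1.43. This median rests on 1 E4 library and does not mean that the genes were called in that fit.

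Immediate early and stress genes, which dissociation can induce, were higher for 8 of 22 and lower for none (median 0.93), and 5 were higher and 1 lower without E4 replicate 2. Fos was at 1.49, 2.62, 7.45, 0.314 and 0.936 CPM in the controls and between 29.2 and 142 CPM (median 32.4) in the E4 libraries (log2 fold change 4.33 ± 0.61, adjusted p = 3.1e-08). Junb was at 280.3 CPM in E4 replicate 2 and between 53.7 and 81.7 CPM in the other 5 E4 libraries and 7.44, 8.86, 4.01, 2.83 and 1.87 CPM in the controls (log2 fold change 4.30 ± 0.53, adjusted p = 4.6e-10, 3.65 ± 0.49, adjusted p = 7.6e-09 without it), and Ier3 at 1580.5 CPM in E4 replicate 2 and between 17.5 and 54.8 CPM in the other 5 E4 libraries and 14.9, 24.3, 9.75, 10.05 and 4.68 CPM in the controls (log2 fold change 4.51 ± 0.62, adjusted p = 1.6e-08, 1.49 ± 0.31, adjusted p = 0.00013 without it). The part of dissociation in these results was not tested. Hsp90aa1, the most abundant member, was between 1145 and 2205 CPM in the controls and between 2077 and 3527 CPM in the E4 libraries (0.86 ± 0.20, adjusted p = 0.00056).

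Genes of metal binding, iron and antioxidant defence were higher for 5 of 21 and lower for 4. Their median of 0.22 turned to -0.25 without E4 replicate 2, with 6 higher and 4 lower. Hmox1, the heme oxygenase that frees iron, was at 9.91, 15.7, 16.3, 12.6 and 16.4 CPM in the controls and between 102 and 419.6 CPM (median 180.3) in the E4 libraries (log2 fold change 3.89 ± 0.36, adjusted p = 2e-14), and Fth1, for the ferritin chain that stores it, was between 936 and 2799.9 CPM in the controls and between 3919 and 8482 CPM in the E4 libraries (log2 fold change 1.71 ± 0.29, adjusted p = 2.8e-06). Both rose in all E4 libraries. The metallothionein genes went the other way, Mt3 with between 72.0 and 167 CPM in the controls and between 5.08 and 30.5 CPM in the E4 libraries (log2 fold change -2.91 ± 0.35, adjusted p = 2.3e-10) and Mt2 with between 1176 and 2836 CPM in the controls and between 459 and 926 CPM in the E4 libraries (-1.37 ± 0.37, adjusted p = 0.0036), with Mt1 under the limit (-0.78 ± 0.37, adjusted p = 0.12). Prdx6, a peroxiredoxin of astrocytes, was between 612 and 928 CPM in the controls and between 161 and 251 CPM in the E4 libraries (-1.92 ± 0.21, adjusted p = 5e-12).

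Lists of genes by which astrocytes support other cells, taken from the study, differed in their share of calls. Of 19 genes of cholesterol synthesis 1 was higher and 3 lower (median -0.08), against 17.9% of all genes in either direction. Tm7sf2, a sterol reductase, was between 15.4 and 44.1 CPM in the controls and between 0 and 8.56 CPM in the E4 libraries (log2 fold change -2.67 ± 0.48, adjusted p = 1e-05). Pmvk, a kinase of the mevalonate pathway, was the gene that rose, with between 19.5 and 38.84 CPM in the controls and between 63.5 and 99.9 CPM in the E4 libraries (log2 fold change 1.44 ± 0.26, adjusted p = 1.2e-05). Hmgcs1, a synthase early in the pathway, was at 771, 842, 983, 741 and 591 CPM in the controls and between 567 and 1067 CPM (median 888) in the E4 libraries (log2 fold change 0.12 ± 0.21, adjusted p = 0.78). Of 15 lactate genes 4 were lower (median -0.20, and -0.89 without E4 replicate 2), among them Ldhb, a lactate dehydrogenase, with between 127 and 236 CPM in the controls and between 10.7 and 22.6 CPM in the E4 libraries (log2 fold change -3.09 ± 0.25, adjusted p = 6e-17), and Pygb, a glycogen phosphorylase, with between 246 and 483 CPM in the controls and between 73.7 and 118 CPM in the E4 libraries (log2 fold change -2.20 ± 0.20, adjusted p = 1.5e-14). Of 13 genes of blood-brain barrier support 6 were lower, against 11.1% of all genes, and none higher (median -1.22), namely Aqp4, Gja1, Vegfa, Slc2a1, Pld2 and Ptgs1. Slc2a1, for the glucose transporter GLUT1, was between 249.97 and 298 CPM in the controls and between 30.5 and 111 CPM in the E4 libraries (log2 fold change -2.22 ± 0.32, adjusted p = 4.7e-08). Of 7 genes of trophic support of myelination Pdgfa alone was called, and Scap, the sterol sensor of the SREBP pathway, was between 115 and 187 CPM in the controls and between 53.9 and 175 CPM in the E4 libraries (-0.37 ± 0.21, adjusted p = 0.2). The plot of calls by list sets these shares beside those of all genes.

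**Figure D5:**
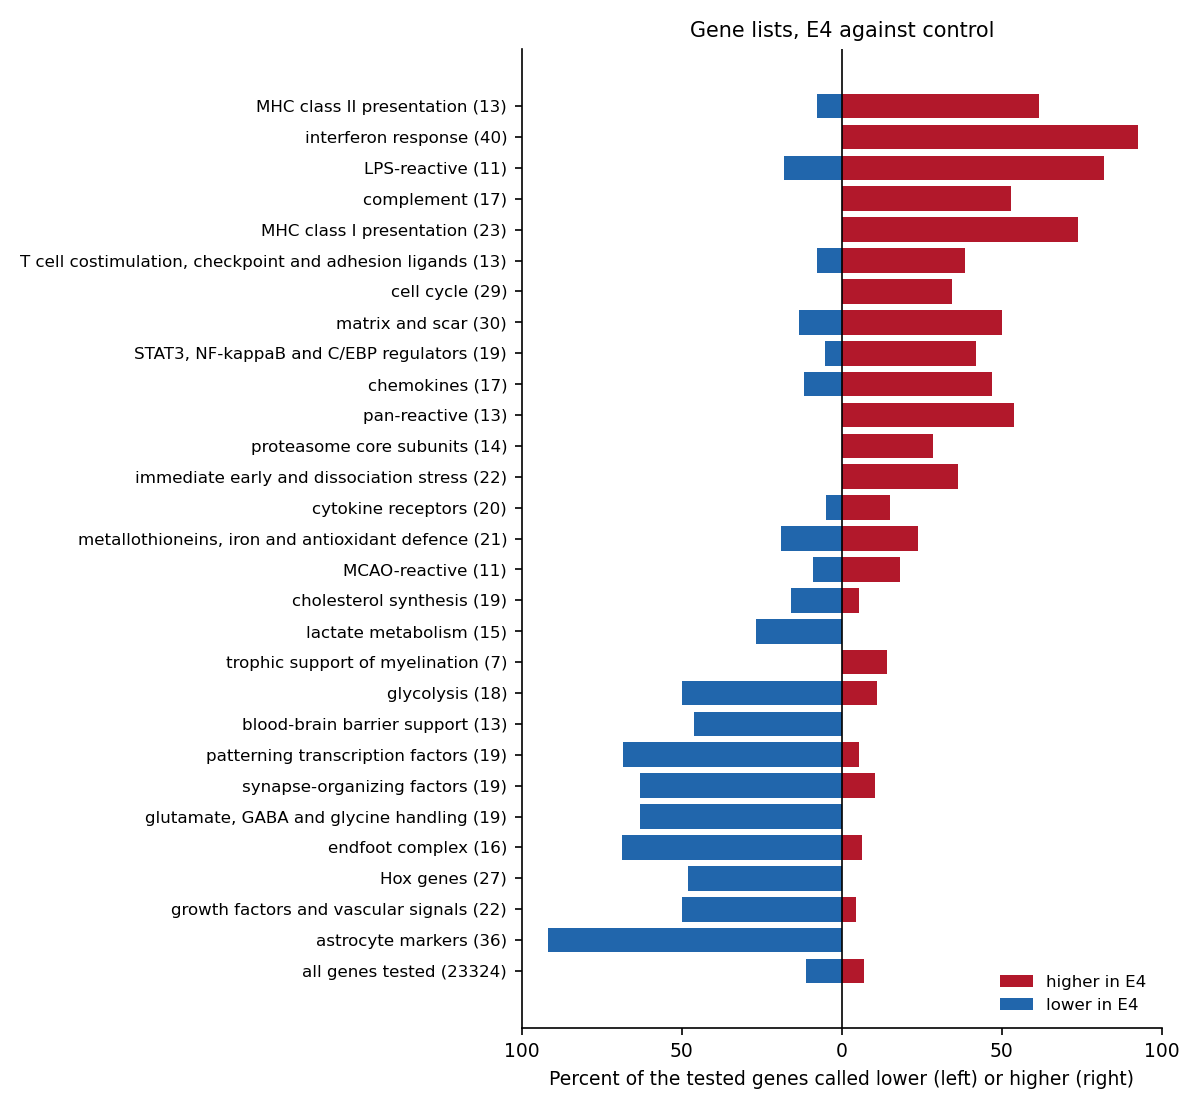
Percent of the tested members of 28 gene lists (y axis) that were called lower (left) or higher (right) in E4 than in control libraries (x axis, percent), with all 23324 genes tested for comparison. The interferon response list (37 of 40) reaches furthest right and the astrocyte marker list (33 of 36) furthest left.

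Genes with the largest fitted increases against the controls depended on E4 replicate 2. Of called genes whose mean reached 5 CPM and whose groups did not overlap, the 10 largest were Lyz2, Ccl6, Arg1, Cybb, H2-Eb1, H2-Aa, Il1b, Saa3, S100a8 and S100a9, all with 0 CPM in every control. In each of the 10 genes E4 replicate 2 was the highest E4 library, and without it Lyz2, H2-Eb1 and H2-Aa remained among the 10 largest while 7 other genes took the remaining places. Lyz2, for lysozyme, was at 1381 CPM in E4 replicate 2 and between 13.8 and 79.4 CPM in the other 5 E4 libraries (at least 231-fold higher at an adjusted p of 1.5e-07, at least 34.3-fold higher at an adjusted p of 2.7e-06 without it). Arg1, for the arginase of macrophages, was at 729.6 CPM in E4 replicate 2 and between 2.96 and 11.4 CPM in the other 5 E4 libraries (at least 112-fold higher at an adjusted p of 5.4e-05, at least 5.63-fold higher at an adjusted p of 0.0093 without it). S100a9, a calcium-binding protein of neutrophils and monocytes, was at 242 CPM in E4 replicate 2 and between 2.26 and 8.87 CPM in the other 5 E4 libraries (at least 40.3-fold higher at an adjusted p of 1.4e-05, at least 5.68-fold higher at an adjusted p of 0.00078 without it). Il1b, for interleukin 1 beta, was at 347 CPM in E4 replicate 2 and between 1.69 and 17.4 CPM in the other 5 E4 libraries (at least 59.03-fold higher at an adjusted p of 1.3e-06, at least 9.67-fold higher at an adjusted p of 5.8e-05 without it). Clec7a, for the receptor dectin 1, was at 0 CPM in all 5 controls and at 161 CPM in E4 replicate 2 and between 2.33 and 8.82 CPM in the other 5 E4 libraries (at least 27.2-fold higher at an adjusted p of 1e-06, at least 4.25-fold higher at an adjusted p of 6.1e-05 without it). Each of these 5 genes was thus also called without replicate 2, at a much lower level.

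The 10 largest decreases by the same rule were Gm11266, Cyp4f15, Nat8f5, C130075A20Rik, Map3k19, Slc2a4, Gm44167, Gpr153, Calr4 and Slc30a10. Gm11266 was between 15.2 and 69.1 CPM in the controls and 0 CPM in all 6 E4 libraries (at least 34.5-fold lower at an adjusted p of 8.9e-17), Cyp4f15, for a cytochrome P450 that hydroxylates fatty acids, was between 19.3 and 52.4 CPM in the controls and 0 CPM in all 6 E4 libraries (at least 25.2-fold lower at an adjusted p of 3.2e-13), and Nat8f5 was between 13.2 and 53.04 CPM in the controls and 0 CPM in all 6 E4 libraries (at least 23.5-fold lower at an adjusted p of 2.4e-12). Slc30a10, an exporter of manganese, was between 8.31 and 29.5 CPM in the controls and between 0 and 0.449 CPM in the E4 libraries (at least 19.3-fold lower at an adjusted p of 5.8e-15, and also lower without E4 replicate 2 at an adjusted p of 1e-13), and Slc2a4, for the insulin-regulated glucose transporter GLUT4, was between 2.51 and 25.3 CPM in the controls and 0 CPM in all 6 E4 libraries (at least 10.5-fold lower at an adjusted p of 4.2e-11). Every control was above every E4 library for these 5 genes because the rule took only genes whose groups did not overlap.

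Values at the other stages place the peak. E4 libraries differed from E1 libraries in 1121 genes (4.81% of those tested), 194 higher and 927 lower, and from chronic libraries in 738 (3.16%), 284 higher and 454 lower. Both comparisons share the E4 libraries with that against the controls, so overlaps of their calls are not read as support. Of the 1586 genes higher than in the controls 129 were also higher than in E1 and 165 higher than in Ech, and 5 were lower than in Ech. Of the 2598 lower genes 871 were also lower than in E1 and 288 lower than in Ech, while 20 were higher than in Ech. The E1 libraries were uneven. E1 replicate 2 had an astrocyte sum of 21702 CPM against between 4148 and 9653 CPM in the other E1 libraries, and without it E4 and E1 differed in 681 genes. The labels of E1 replicate 1 disagree on the region, and its Hox sum of 583 CPM lay within that of the other E1 libraries (between 307 and 676 CPM).

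Astrocyte markers were lower than in E1, with the uneven E1 replicate 2 included, for 31 of 36 and lower than in Ech for 0 of 36. The 8 defining genes summed to between 4148 and 21702 CPM in E1 and between 3384 and 5911 CPM in Ech, so that E4 had the lowest range of the 4 stages while overlapping with Ech. Atp1b2 was 6598 ± 926 CPM (mean ± SD) in controls, 3492 ± 3247 CPM in E1, 357 ± 209 CPM in E4 and 456 ± 137 CPM in Ech (E4 against E1 -3.29 ± 0.30, adjusted p = 7.7e-14, against Ech -0.35 ± 0.27, adjusted p = 0.51). Interferon response genes summed to between 2509 and 7752 CPM in E1 and between 655 and 6343 CPM in Ech. Igtp was 665 ± 346 CPM in E1, 707 ± 199.8 CPM in E4 and 213 ± 186 CPM in Ech (E4 against E1 0.09 ± 0.52, adjusted p = 1, against Ech 1.73 ± 0.51, adjusted p = 0.033). E4 and E1 were thus not told apart for Igtp, and the chronic libraries were lower.

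H2-D1 was 576 ± 339 CPM in E1, 1692 ± 496 CPM in E4 and 844 ± 132 CPM in Ech (E4 against E1 1.55 ± 0.38, adjusted p = 0.0039, against Ech 1.00 ± 0.35, adjusted p = 0.088). B2m was 792 ± 538 CPM in E1, 2353 ± 371 CPM in E4 and 989 ± 289 CPM in Ech (E4 against E1 1.57 ± 0.34, adjusted p = 0.00067, against Ech 1.25 ± 0.31, adjusted p = 0.0086). B2m was the class I gene for which E4 exceeded both other stages. C4b was 557 ± 266 CPM in E1, 1243 ± 281 CPM in E4 and 682 ± 157 CPM in Ech (E4 against E1 1.16 ± 0.36, adjusted p = 0.039, against Ech 0.87 ± 0.34, adjusted p = 0.13). Serpina3n was 1887 ± 1048 CPM in E1, 1876 ± 227 CPM in E4 and 1854 ± 1165 CPM in Ech (E4 against E1 -0.01 ± 0.44, adjusted p = 1, against Ech 0.02 ± 0.42, adjusted p = 1). Mobp was 3854 ± 2084 CPM in E1, 7453 ± 2348 CPM in E4 and 1912 ± 1066 CPM in Ech (E4 against E1 0.95 ± 0.43, adjusted p = 0.18, against Ech 1.96 ± 0.42, adjusted p = 0.0014). Cell cycle genes had a median log2 fold change of -1.39 against Ech, with Ccnd1 alone called lower.

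Sheet number and stage could be separated only in part. With E4 replicate 3 as the single E4 library, whose spread is then taken to be that of the other groups, 1407 genes were called against the controls, 1333 of them among the 4184. The median log2 fold change in that fit was -4.27 for astrocyte markers, beside -3.75 with all E4 libraries. For interferon response genes it was 4.14, beside 4.83. In the 22 spinal cord libraries with the sheet number, above or under 56, as a term, 1774 genes were called, 1701 of them shared. Astrocyte markers were then lower for 32 of 36 and interferon response genes higher for 34 of 40. Other lists lost more calls. With the sheet number as this term, synapse-organizing genes were lower for 5 instead of 12 in the main fit and patterning factors for 7 instead of 13. Neuron genes were lower for 2 instead of 7 and genes that handle glutamate, GABA and glycine for 8 instead of 12. Without the term the 22 libraries gave 12, 10, 8 and 12 lower. Median log2 fold changes of these lists were -1.27, -1.75, -1.62 and -1.62 with the term. They were -1.54, -2.04, -2.01 and -2.08 without it and -1.59, -2.40, -2.06 and -2.04 in the main fit. With the term chemokine genes were higher for 3 of 15 instead of 8 of 17 in the main fit. T and NK cell genes were higher for 4 instead of 8 and pan-reactive genes for 4 instead of 7. Without the term the 22 libraries gave 8 of 15, 8 and 7. Medians of these lists were 4.92, 5.31 and 2.23 with the term and 4.14, 5.07 and 2.17 without it. They were 3.73, 5.04 and 2.10 in the main fit, and 1.09, 1.70 and 0.84 there with bounds. The medians without bounds thus rest in part on genes at the floor and are not read as support. With E4 replicate 3 as the only E4 library, the median was -2.85 for Hox genes, beside -2.73 with all E4 libraries. For T and NK cell genes it was 4.47, beside 5.04, and for matrix and scar genes 1.44, beside 1.67. For myeloid genes it was 3.27, beside 5.69 with all E4 libraries and 2.49 without E4 replicate 2. Medians of the fit with E4 replicate 3 alone do not mean that members of these lists were called in it. In E4 replicate 3 itself Atp1b2 was at 202 CPM, Aqp4 at 47.8 CPM, H2-D1 at 2032 CPM and Igtp at 528 CPM, each within the range of the other E4 libraries and outside that of the controls. Of the genes named above, C3, Ccl2, Col1a1, Emp1, Gfap, Gm44167, Gpc4, Hk2, Il17ra, Il1r1, Lgmn, Map3k19, Mog, Mt2, Mx1, Nfkb1, Osmr, Pdgfrb, Pld2, Psmb3, Ptgs2, Rela, Slc10a6, Snap25, Spi1, Syt1, Thbs1, Trim30a, Vim and Zic4 lost their calls with the sheet number as a term, Gfap at a log2 fold change of 1.29 and an adjusted p of 0.054. Hsp90aa1, Ifnar2 and Itgb1 were called higher and Hoxc5 lower in that fit.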

How the data were processed

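The authors made QuantSeq 3′ libraries with single reads and, per their processing notes and methods, aligned the reads to GRCm38 with HISAT 0.1.5, sorted them with SAMtools and counted reads per gene with HTSeq 0.6.1p1 in union mode. Whether the counting used strand is not given in the sources used here. They deposited whole counts per gene, without normalization or pooling of replicates, as 1 table of 66 libraries and 48526 genes, of which 48058 matched a symbol. No column was without a sample and no pair of libraries held identical counts.

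Counts were scaled by the TMM method and tested with the two-sided quasi-likelihood test of edgeR 4.0.16 in R 4.3.3 in a fit of all 66 libraries, which share their estimate of the spread, on the 23324 genes that summed to 10 counts or more. A gene was called at a Benjamini-Hochberg adjusted p under 0.05 and a log2 fold change beyond 1. Groups were taken from the library titles, and for 1 E1 library whose fields disagree on the region the title was used. P-values set a difference against the spread between libraries, which was estimated over all 66 libraries and not over the compared ones alone. The detection floor of 3 counts corresponded to between 0.613 and 1.69 CPM in the 11 libraries and covers counting error only, since several reads may stem from 1 molecule. For a group with every library at or below that floor, folds were computed from the means with that group at the mean floor (1.14 CPM for the controls and 1.17 CPM for E4) and are lower bounds.

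Replicate numbers were checked for pairing. Deviations from the group means of same-numbered E4 and control libraries had correlations between -0.209 and 0.0658 in 5 pairs, and the numbers were not used to pair libraries. Alternatives were the 22 spinal cord libraries or the 2 groups alone, DESeq2 1.42.0, other size factors and filters, the replicate number as a block, the sheet number as a term, and leaving out each library. On simulated data with 200 changed genes, the test of E4 against control libraries recovered 49% at a log2 fold change of 1.5 (22421 genes tested), 78% at 2 (22450 genes) and 93.5% at 3 (22433 genes). The changed genes were drawn from those with a mean over 5 CPM, and no other gene differed between groups. These rates therefore do not describe genes near the floor or data with as many differences as here.

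The libraries and gene lists were chosen with earlier results of these data known. Named genes were those the study names, the 10 largest increases and the 10 largest decreases of called genes whose mean reached 5 CPM and whose groups did not overlap, and for each list the 3 called members with the smallest adjusted p and the most abundant member not called. Some genes that this rule takes in are not reported here. Members of the lists beyond this rule were named after their values were seen. Promoter windows were read from RefSeq (GRCm38.p6). Summaries and figures were made in Python 3.11.15 (numpy 2.4.6, pandas 2.3.3, matplotlib 3.10.9).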

Additional observations from a re-analysis of the deposited data

Results flagged for a closer look

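Among 254 groups of values (131 named genes and the summed marker lists in the 6 E4 or the 5 control libraries), 40 held a library whose gap to its neighbour as a share of the group's range exceeded Dixon's 95% critical value. Chance flags about 1 in 20 such groups only where values are normally distributed. A group with 0 CPM in all libraries but 1 is always flagged, as for Mki67, H2-Ab1 and the endothelial sum in the controls. Genes of a library are also not independent, so the 40 are not set against that rate. The part of any cause was not tested.

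E4 replicate 2 was the highest library of its group in 19 of them. Myeloid genes formed the main group, with a summed level of the 19 markers of 6640.0 CPM and with Lyz2 at 1381 CPM, Ctss at 2146 CPM, C1qa at 1200.4 CPM, C1qb at 287 CPM, Cybb, a subunit of the phagocyte oxidase, at 517 CPM, Clec7a at 161 CPM, S100a9 at 242 CPM, Arg1 at 729.6 CPM and the chemokine gene Ccl6 at 757 CPM. The class II genes H2-Aa and H2-Ab1 were at 385 and 532 CPM. Ier3 was at 1580.5 CPM, Nfkbia at 1662 CPM and Junb at 280.3 CPM. Apoe was at 1322 CPM, Pkm at 579 CPM, Mmp14 at 139 CPM and Icosl at 26.1 CPM.

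Control replicate 3 was the lowest library of its group for a set of astrocyte genes. Their summed level over the 8 defining genes was 12788 CPM there. Sparcl1 was at 4987 CPM, Slc6a11 at 2682 CPM, Aqp4 at 834 CPM, Wnt7b at 148 CPM, Hoxa9 at 21.5 CPM, Slc30a10 at 8.31 CPM and Calr4, for a calreticulin paralog, at 0.573 CPM. The same library had the highest sum of the 10 oligodendrocyte markers among the controls, 41875 CPM against between 14358 and 20326 CPM in the other 4.

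The other libraries so marked followed no shared gene group. Hoxc6 was at 148 CPM in control replicate 5, Lgals3bp at 88.9 CPM and the endothelial sum at 3.74 CPM in the same library. Tm7sf2 was at 15.4 CPM in control replicate 2, Pmvk at 19.5 CPM and H2-Ab1 at 1.26 CPM in control replicate 4, and Mki67 at 3.47 CPM and C4b at 4.96 CPM in control replicate 1. Among the E4 libraries, Slc1a3 was at 8.95 CPM, Pygb at 118 CPM and Tm7sf2 at 0 CPM in replicate 4, and Ldhb was at 10.7 CPM and Gria1 at 0 CPM in replicate 1.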

How the results depend on the processing

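Against the 4184 genes called between E4 and control libraries, DESeq2 with a tested threshold of 1 on the log2 scale called 1462, E4 replicate 3 alone gave 1407, and the sheet number as a 2-level term 1774 or as a linear term 1937. Between E4 and E1 (1121 genes), DESeq2 with that threshold called 361, a fit of only these 2 groups 435 and the sheet number as a 2-level term 152. Between E4 and Ech (738 genes), the 22 spinal cord libraries alone gave 473, DESeq2 with that threshold 9 and the sheet number as a 2-level term 97. Leaving out each library in turn gave between 3592 and 4293 genes against the controls, between 681 (without E1 replicate 2) and 1340.0 against E1 and between 526 and 857 against Ech. With the replicate number as a replicate block the counts were 3911, 1043 and 696, and the numbers do not pair the libraries. Scaling by library totals alone moved the split against Ech to 200 higher and 756 lower. Of 106 named genes called against the controls, 84 were called in the same direction with E4 replicate 3 alone, 95 with the sheet number as a 2-level term, 97 with it as a linear term, and between 103 and 106 under the others, DESeq2 with that threshold not being counted here. With E4 replicate 3 alone 105 of the 106 had the same sign, and under those others all 106. The cause of these differences was not tested. Depth limits genes near the floor. A gene that was not called may still differ.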

Other observations

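Without E4 replicate 2, 7 of the 10 largest increases were other genes than in the full set. They were picked after their values were seen, by the size of the fitted change. Gbp6, an interferon-induced GTPase, was 0 CPM in all 5 controls and between 0.564 and 109 CPM in the other 5 E4 libraries, while replicate 2 had 0 CPM. Gm12250, which encodes an immunity-related GTPase, was between 0 and 0.936 CPM in the controls and between 74.7 and 173 CPM in the other 5 E4 libraries (at least 106-fold higher at an adjusted p of 4.1e-10). Gm4951, of the same family, was between 0 and 0.496 CPM in the controls and between 28.8 and 72.8 CPM in the other 5 E4 libraries (at least 45.9-fold higher at an adjusted p of 2.9e-08). Uba7, for the enzyme that activates ISG15, was 0 CPM in all 5 controls and between 10.2 and 26.1 CPM in the other 5 E4 libraries (at least 15.7-fold higher at an adjusted p of 9.3e-06). Each of these except Gbp6 lay above every control in all 6 E4 libraries, and outside replicate 2 the rule for picking them had required this.

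Piezo2, for a mechanically gated ion channel, was 0 CPM in all 5 controls and between 2.73 and 53.6 CPM in the other 5 E4 libraries (at least 24.4-fold higher at an adjusted p of 1.7e-06). Fgfr4, for a fibroblast growth factor receptor, was 0 CPM in all 5 controls and between 7.90 and 33.5 CPM in the other 5 E4 libraries (at least 14.1-fold higher at an adjusted p of 0.0002). Actg1, for gamma-actin, was between 0 and 2.87 CPM in the controls and between 4.44 and 2017 CPM in the other 5 E4 libraries, and only E4 replicates 2 and 5 were above 10 CPM.

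Of the decreases in that fit, Egfl6, for a secreted protein of the extracellular matrix, was between 23.5 and 69.4 CPM in the controls and 0 CPM in the other 5 E4 libraries (an adjusted p of 1.2e-07, edgeR's quasi-likelihood test).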
